A study of Bos taurus with 15 samples.

Results

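The PIWI and piRNA pathway genes described here are PIWIL1, PIWIL2, PIWIL4, MOV10L1, DDX4, TDRD9, TDRD1, TDRD5, ASZ1 and MAEL, measured in testis tissue of 15 cattle. They were found by symbol, gene number, accession or description in the array files. All 10 genes had a probe, 11 probes in all, of 15693 genes and 21475 probes. TDRD9 had 2 probes and every other gene had 1. The 7 control animals were untreated. The 8 treated animals were given prednisolone, a synthetic glucocorticoid, orally for 35 days in a daily dose of 30 mg per head. Testes were collected at slaughter, each array held the total RNA of 1 animal, and the labels used here give no age, breed or pairing. A whole testis holds germ cells, Sertoli cells, Leydig cells, muscle-like peritubular cells, vessels and immune cells, so fewer cells of a type and less RNA per cell cannot be told apart in these values.

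PIWI proteins are germ line Argonautes that carry small RNAs, the piRNAs, and use them to find and silence transposon transcripts. Long precursor transcripts are unwound and cut at the surface of mitochondria and in the perinuclear germ granules, and PIWI proteins also guide DNA methylation of transposons in fetal germ cells. In the adult testis the pathway is best known from spermatogonia, pachytene spermatocytes and round spermatids, and loss of most of these genes in male mice stops spermatogenesis. Germ cell markers were read beside these genes, with control 17 and prednisolone 30 set aside. On the 13 arrays left, 19 of 19 spermatocyte markers and 23 of 24 spermatid markers with a probe were well above background on at least 1 array. So were 6 of 7 epididymis, 3 of 4 blood and 13 of 13 immune markers. On each of these arrays 82.2% to 89.9% of all probes were well above background, so these counts do not identify the tissue.

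Control 17 and prednisolone 30 both stood apart. The array of prednisolone 30 was dim, with 36.4% of probes well above background against 82.2% to 89.9% on the other 14, and correlated with the others at 0.705 to 0.736, while those 14 correlated with each other at 0.962 to 0.993. Gene-centred values of its scanner file correlated at 0.0134 with its column of the authors' deposited table, where the other arrays reached 0.702 to 0.951. For all 11 probes its deposited value lay inside the range of the 13 arrays other than control 17. Which source holds the animal's RNA was not settled, so values given for prednisolone 30 are those of the scanner file, and results are given with and without it. On this array PIWIL1, PIWIL4, TDRD1 and ASZ1 were not well above background and the other 6 genes were, and the second TDRD9 probe was not. On each of the other 14 arrays all 11 probes were well above background. Control 17 had a clear signal, but its means of some marker lists lay outside the range of the 13 other arrays, as described below.

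No PIWI or piRNA pathway gene differed between prednisolone and control testis beyond the spread between animals. In limma, a linear model fitted over all probes with Benjamini-Hochberg adjustment, 0 of 10 genes had an adjusted p under 0.05, against 0 of 13326 genes tested (0%). The count with an unadjusted p under 0.05 was 0 of 10, where 2.63% of all genes tested passed that mark. Of the 10 genes, 5 had higher and 5 lower values in treated animals, with a median log2 difference of 0.046 against -0.0012 over all genes, of which 49.8% were higher. Without prednisolone 30, 8 were higher and 2 lower, with a median of 0.093 against 0.011 over all genes, of which 52.6% were higher. The adjusted p was again under 0.05 for 0 genes (0%), and the unadjusted p for 0 of the 10, where it was for 4.29% of all genes. Without prednisolone 30 and control 17, 6 were higher and 4 lower. The median was then 0.043 against 0.0050 over all genes, of which 6833 of 13326 were higher. No gene separated the groups: values of treated and control animals overlapped for all 10, and 0.045% of all genes did not overlap (0.0675% without prednisolone 30).

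**Figure D1:**
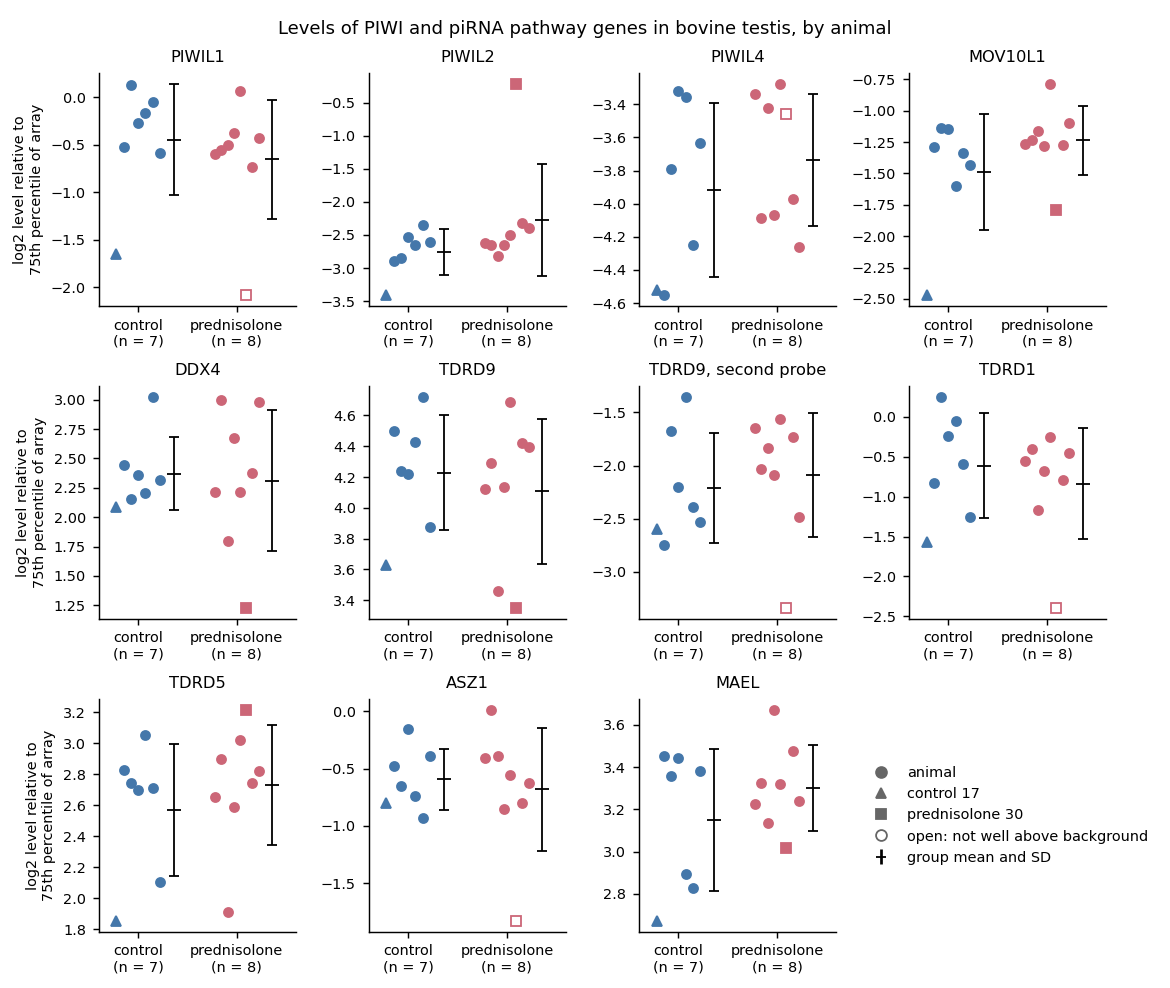
Each panel plots the log2 level of 1 gene, relative to the 75th percentile of the array, for 7 control and 8 prednisolone animals; bars give the group mean and SD, and open symbols mark values not well above background. The groups overlap in every panel, and control 17 (triangle) lies lowest of the controls for 8 of the 10 genes, all but PIWIL4 and ASZ1. Prednisolone 30 (square) stands apart from the other treated animals for PIWIL1, PIWIL2, TDRD1 and ASZ1. It is also the lowest treated animal for MOV10L1, DDX4, MAEL and both TDRD9 probes, and the highest for TDRD5.

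Levels below are log2 distances from the 75th percentile of the array. They compare animals for 1 probe, and levels of different probes cannot be set against each other. The PIWI proteins come first. PIWIL1, which loads piRNAs of pachytene spermatocytes, ranged in controls from -1.65 through a median of -0.27 to 0.12, and in treated animals from -2.09 through -0.53 to 0.06. Control 17 and prednisolone 30 were the lowest of their groups, each more than 1 log2 unit below the next animal's -0.59 and -0.73. The group levels were -0.45 ± 0.59 (SD, n = 7) and -0.65 ± 0.62 (SD, n = 8), a difference of -0.20 ± 0.30 (SE) with a 95% interval of -0.83 to 0.42 (limma adjusted p = 0.891). Without prednisolone 30 it was -0.0004, and without both of those animals -0.20 (interval -0.51 to 0.11).

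PIWIL2, which acts in spermatogonia and early germ cells and feeds the cycle that amplifies piRNAs, ranged from -3.41 through -2.66 to -2.36 in controls. Treated animals ranged from -2.81 through -2.56 to -0.21. The highest value belonged to prednisolone 30, the next treated animal lay at -2.31, and the lowest belonged to control 17. The high value of prednisolone 30 is in the scanner file alone: in the deposited table its PIWIL2 level was 8.17 on the log2 scale, inside the 7.99 to 8.62 of the 13 others, and the group difference there was 0.16 (limma adjusted p = 0.873). In the scanner file of prednisolone 30 the mean of spermatogonial markers was also the highest of all animals, at 0.81 relative to the mean of the 14 arrays. So were the means of endothelial (1.55), blood (1.52) and epididymis markers (0.89), which lay higher still. Only 2 of the 15 spermatogonial markers with a probe were well above background there, and their part in the PIWIL2 value was not tested. The groups were at -2.76 ± 0.34 (SD, n = 7) and -2.27 ± 0.85 (SD, n = 8). The difference of 0.49 ± 0.32 (SE; interval -0.19 to 1.17) had a limma adjusted p of 0.885, with 7 of the 8 treated animals higher than the control mean. It was 0.20 without prednisolone 30 (interval -0.12 to 0.51) and 0.088 without both animals (-0.16 to 0.34).

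PIWIL4, the nuclear PIWI protein that directs DNA methylation of transposons, had its lowest values in controls 18 and 17, at -4.55 and -4.52. Controls had a median of -3.79 and a highest value of -3.32, and treated animals ranged from -4.26 through -3.71 to -3.28. The animals were spread over the whole range in both groups. Their levels of -3.92 ± 0.52 (SD, n = 7) and -3.73 ± 0.40 (SD, n = 8) differed by 0.18 ± 0.23 (SE; interval -0.31 to 0.68; limma adjusted p = 0.888). Of the 10 genes, PIWIL4 moved most when slide was added as a block, to 0.85. It was 0.71 with the scan day in the model. Only scan day 1 held both groups, so this is the same estimate as that among its arrays alone. The difference was 0.66 among these without prednisolone 30, and 0.83 within slide 1. These settings are not independent. Each compares treated animals with controls 17, 18 and 23, the lowest PIWIL4 controls (-4.52, -4.55 and -4.25), or within slide 1 with controls 17 and 18. The unadjusted p was 0.00632 with slide and 0.0197 with scan day as a block, and the limma adjusted p was 0.914 and 0.928. Without prednisolone 30 and control 17 and with no block, the difference was 0.043 (interval -0.44 to 0.52).

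The helicases unwind piRNA precursors or target transcripts. MOV10L1, which binds piRNA precursors and hands them to the cutting machinery, ranged from -2.47 through -1.34 to -1.14 in controls and from -1.79 through -1.25 to -0.79 in treated animals. Control 17 held the lowest control value and prednisolone 30 the lowest treated value. The group levels of -1.49 ± 0.46 (SD, n = 7) and -1.24 ± 0.28 (SD, n = 8) differed by 0.25 ± 0.20 (SE; interval -0.17 to 0.67; limma adjusted p = 0.885), with 7 of 8 treated animals above the control mean. Without prednisolone 30 the difference was 0.33 (interval -0.051 to 0.71), the largest of the 10 genes there in size. Without both animals it was 0.17 (-0.079 to 0.41), and without control 17 alone 0.086.

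DDX4, the VASA helicase of the germ granule and a general germ cell marker, ranged from 2.09 through 2.32 to 3.03 in controls and from 1.23 through 2.30 to 3.00 in treated animals. Control 23 and prednisolone 26 and 32 were high, and prednisolone 30 and 27 were low. The levels of 2.37 ± 0.31 (SD, n = 7) and 2.31 ± 0.60 (SD, n = 8) differed by -0.062 ± 0.25 (SE; interval -0.58 to 0.46; limma adjusted p = 0.954). Without prednisolone 30 the difference was 0.093 (interval -0.31 to 0.50).

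TDRD9 combines a helicase with a Tudor domain and works with PIWIL4. Its brighter probe, named by the array's description, ranged from 3.63 through 4.24 to 4.72 in controls and from 3.35 through 4.21 to 4.68 in treated animals. Prednisolone 30 and 27 were the lowest treated animals and control 17 the lowest control. The difference was -0.12 ± 0.22 (SE; interval -0.59 to 0.34; limma adjusted p = 0.908) between 4.23 ± 0.37 (SD, n = 7) and 4.11 ± 0.47 (SD, n = 8), and -0.013 without prednisolone 30. The second probe, named through its gene number, ranged from -2.75 through -2.39 to -1.35 in controls and from -3.34 through -1.94 to -1.57 in treated animals, and it differed by 0.12 ± 0.27 (SE; limma adjusted p = 0.925). It differed by 0.30 without prednisolone 30 (interval -0.15 to 0.75; limma adjusted p = 0.964), by 0.69 within scan day 1 without that animal and by 0.83 within slide 1. Across the 14 arrays without prednisolone 30 the probes hardly followed each other, with a Pearson r of 0.14 and a Spearman rho of 0.16 (permutation p = 0.626 and 0.594). The array files place these probes under different gene records, and which of them reads TDRD9 was not settled. The TDRD9 values therefore depend on which probe is read.

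Tudor scaffold proteins bind methylated arginines on PIWI proteins and hold the germ granule together. TDRD1, a partner of PIWIL2 in the granule between mitochondria, ranged from -1.57 through -0.59 to 0.25 in controls and from -2.40 through -0.61 to -0.25 in treated animals. Control 17 and control 24 were the lowest controls, and prednisolone 30 and 27 the lowest treated animals. Levels of -0.61 ± 0.66 (SD, n = 7) and -0.84 ± 0.69 (SD, n = 8) differed by -0.22 ± 0.33 (SE; interval -0.91 to 0.47; limma adjusted p = 0.892). Without prednisolone 30 the difference was 0.00011, and without both animals -0.16 (interval -0.62 to 0.30). It was 0.14 with slide as a block and 0.19 with scan day as a block. Within slide 1, where control 17 is 1 of the 2 controls, it was 0.72.

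TDRD5, a granule protein that promotes the pachytene piRNAs, ranged from 1.85 through 2.71 to 3.05 in controls and from 1.91 through 2.78 to 3.22 in treated animals. Control 17, control 24 and prednisolone 27 were low, at 1.85, 2.10 and 1.91, and no other animal was below 2.59. The levels of 2.57 ± 0.43 (SD, n = 7) and 2.73 ± 0.39 (SD, n = 8) differed by 0.16 ± 0.21 (SE; interval -0.28 to 0.61; limma adjusted p = 0.888). It was 0.094 without prednisolone 30 and -0.026 without both animals.

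ASZ1, a scaffold with ankyrin repeats that anchors the machinery at mitochondria, had the narrowest control range, from -0.93 through -0.66 to -0.16. Treated animals ranged from -1.83 through -0.59 to 0.01, and without prednisolone 30 the lowest was -0.85. The levels of -0.59 ± 0.27 (SD, n = 7) and -0.68 ± 0.54 (SD, n = 8) differed by -0.087 ± 0.22 (SE; interval -0.56 to 0.38; limma adjusted p = 0.935), and by 0.077 without prednisolone 30. Control 17, at -0.80, lay inside the range of the other controls.

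MAEL, a germ granule protein needed for transposon silencing, ranged from 2.67 through 3.36 to 3.45 in controls and from 3.02 through 3.28 to 3.67 in treated animals. Control 17, 23 and 22 were the lowest animals. The levels of 3.15 ± 0.34 (SD, n = 7) and 3.30 ± 0.20 (SD, n = 8) differed by 0.15 ± 0.16 (SE; interval -0.19 to 0.49; limma adjusted p = 0.885), with 6 of 8 treated animals above the control mean. It was 0.19 without prednisolone 30 and 0.11 without both animals.

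**Figure D2:**
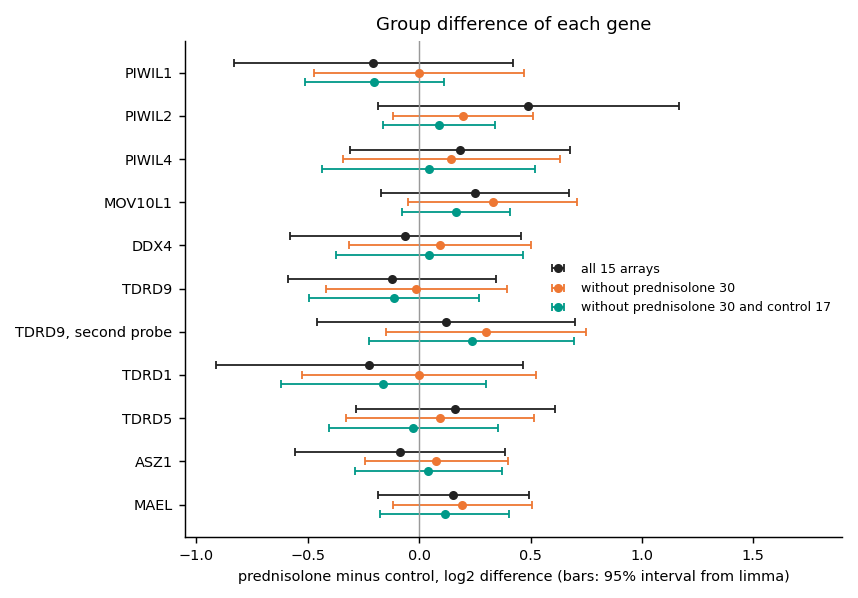
The horizontal axis gives the log2 difference of prednisolone minus control for each gene, with 95% intervals from limma, for all 15 arrays, without prednisolone 30, and without prednisolone 30 and control 17. All intervals include 0; the PIWIL2 difference is 0.49, 0.20 and 0.088 in these settings.

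Slide and scan day moved some differences by more than 1.5 times. With slide and with scan day as a block, TDRD5 was at 0.43 in both fits, the second TDRD9 probe at 0.47 and 0.44, MAEL at 0.26 and 0.28, MOV10L1 at 0.40 and 0.46, and DDX4 at -0.32 and -0.19. The PIWIL2 difference was 0.71 and 0.78 in these fits, which include prednisolone 30, and 0.40 within scan day 1 without it. None of these passed (limma adjusted p of 0.909 to 0.936). Both block fits compare the groups through controls 17, 18 and 23 only, the controls that shared a slide or scan day with treated animals.

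The intervals without prednisolone 30 and with no block reached from -0.52 (TDRD1) to 0.75 (the second TDRD9 probe). Changes outside that span lay outside the interval of every gene in that fit, which does not bound other fits. Over all 15 arrays the intervals reached from -0.91 (TDRD1) to 1.17 (PIWIL2). With slide as a block PIWIL4 was at 0.85, and within slide 1 the second TDRD9 probe was at 0.83. These intervals measure the spread between animals of 1 array each.

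The genes also differed in how far animals lay apart. Over the 14 arrays without prednisolone 30 the SD of a gene was 0.27 (ASZ1) to 0.49 (TDRD1), where the median of all genes tested was 0.31. TDRD1, PIWIL4 (SD 0.46) and PIWIL1 (SD 0.43) varied more than 86.2%, 82.7% and 79.5% of all genes. ASZ1, MAEL and PIWIL2 (SD 0.27, 0.28 and 0.28) varied more than 37.5%, 39.4% and 40.1%. Part of this spread lay in control 17: without it the SD of PIWIL1 was 0.27 and that of MOV10L1 was 0.19, down from 0.38.

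In control 17, 6 of the 10 genes lay below all 13 other arrays and 0 lay above them. Of all genes tested, 26.6% lay below and 19.5% above. PIWIL1 was 1.30 log2 units below the mean of the 13, MOV10L1 1.24, TDRD1 1.04, TDRD5 0.82, PIWIL2 0.81 and MAEL 0.62. The count was 5 with quantile scaling and in the deposited table, 8 with median scaling and 4 with normexp background correction. The shares of all genes above hold for the main scaling only. Without shares of their own, the counts under other scalings cannot be read against a background. PIWIL4, TDRD9, DDX4 and ASZ1 lay inside the range of the others, 0.73, 0.64, 0.35 and 0.27 below their mean. The mean of the 10 genes, each centred on its mean of the 14 arrays, was -0.73 in control 17 and between -0.22 and 0.29 in the 13 others.

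Some marker lists of other cell types and tissues also stood apart in the same animal. The mean of 22 tested spermatid markers was -0.79 in control 17, against -0.20 to 0.42 in the 13 others, and that of 17 spermatocyte markers was -0.39, against -0.37 to 0.26. The mean of 11 spermatogonial markers was 0.12, inside the -0.38 to 0.20 of the others. Peritubular myoid and smooth muscle markers (8 tested) were at 1.25 against -0.42 to 0.41, endothelial markers (10 tested) at 0.85 against -0.33 to 0.31, and immune markers (13 tested) at 0.53 against -0.35 to 0.34. Sertoli markers (13 tested) were at 0.17 against -0.30 to 0.45, and their summed level was 158.2 against 104.2 to 157.9. The summed level of the 9 myoid markers was 77.5 times the 75th percentile in control 17, against 24.3 to 41.6 in the others, and all 9 were well above background there. That of the 24 spermatid markers was 628.8 against 762.3 to 1177.9. Unlike their means, the summed endothelial and immune levels lay inside the range of the others. They were 2.55 against 1.51 to 2.88, and 20.1 against 18.2 to 24.8. Leydig markers had a mean of 0.068 against -0.94 to 0.65. Means of epididymis and blood markers were 0.25 and 0.12, inside the -0.22 to 0.39 and -0.28 to 0.42 of the others. Their summed levels lay above the others, at 2.26 against 0.78 to 1.54 and 3.91 against 1.73 to 3.08. In control 17, 4 of 7 epididymis and 2 of 4 blood markers were well above background. The part of these cell types and tissues in the low piRNA gene levels of control 17 was not tested.

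**Figure D3:**
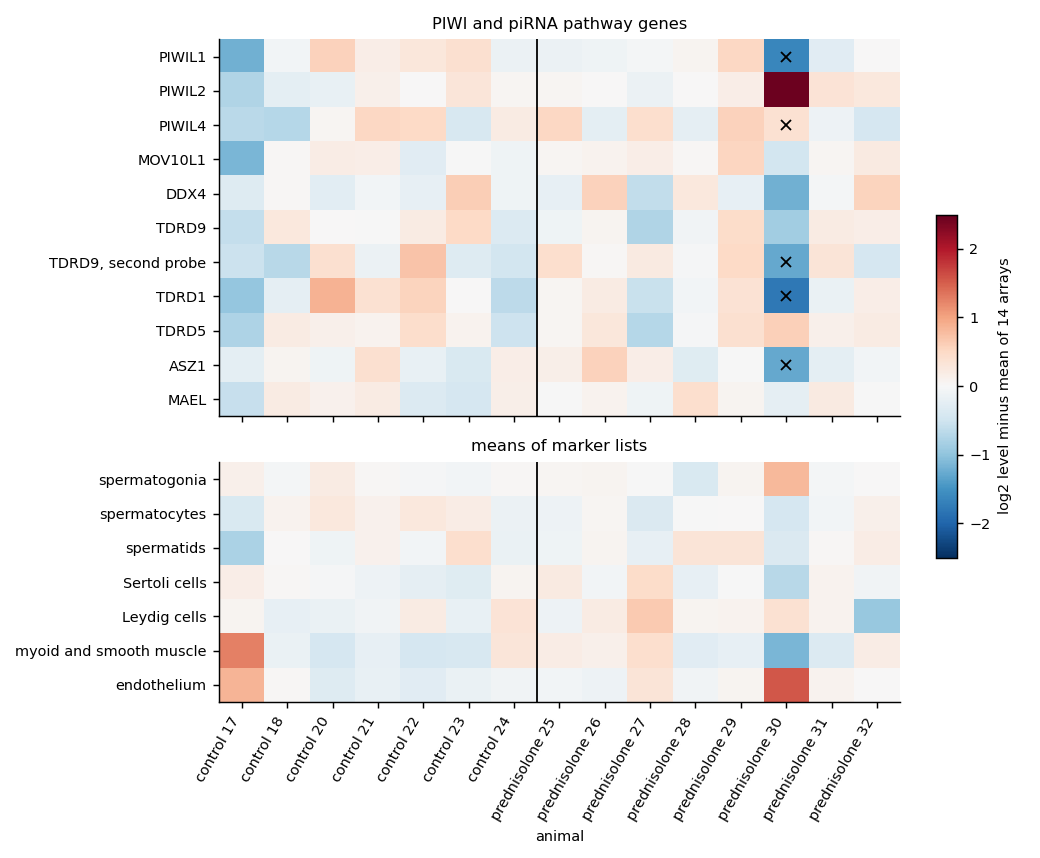
Colours give log2 levels minus the mean of the 14 arrays without prednisolone 30, for the 11 probes (top) and the means of marker lists (bottom), with 1 column per animal and a line between the 7 controls and 8 treated animals; crosses mark values not well above background. Control 17 is low for most of the genes and for spermatid markers (-0.79) and high for myoid markers (1.25), and prednisolone 30 is high for PIWIL2, 2.39 above the mean of the 13 other arrays, in the scanner file; its endothelial markers are at 1.55, with 1 of 10 well above background.

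The genes did not all vary together. Of 55 pairs among the 11 probes over the 14 arrays, 1 passed in both Pearson's and Spearman's correlation after Benjamini-Hochberg adjustment over the 55, and 49 had a positive Pearson r, with a median of 0.346. Without control 17 the median was 0.0892, 29 pairs were positive and 0 passed both, so the number of positive pairs rested largely on that animal. The pair that passed was TDRD9 (brighter probe) with TDRD5, with r = 0.898 and rho = 0.820 (permutation test over the 14 animals, adjusted p = 0.00275 and 0.0297). Control 17, control 24 and prednisolone 27 were low for both genes. Without these 3, over 11 animals, r was 0.525 (permutation p = 0.0958) and rho 0.636 (permutation p = 0.0411). Without the 2 animals farthest from the TDRD9 median, control 17 and prednisolone 27, r was 0.733. Within scan day 1 r was 0.856 over 8 arrays (exact permutation test, adjusted p = 0.147). In the deposited table it was 0.838, and rho there did not pass (adjusted p = 0.102). Over all 15 arrays r was 0.486 (permutation adjusted p = 0.182). The second TDRD9 probe followed TDRD5 with r = 0.383 over the 14 arrays and did not pass (permutation adjusted p = 0.360). The pair that passed therefore holds for the brighter probe only, and whether that probe reads TDRD9 was not settled.

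TDRD1 followed TDRD5 with r = 0.822 and PIWIL1 with r = 0.801 over the 14 animals (permutation adjusted p = 0.00788 for each), but their rho of 0.644 and 0.714 did not pass (adjusted p = 0.212 and 0.105). Controls 17 and 20 lay farthest from the TDRD1 median and also from the PIWIL1 median. Without them r was 0.851 for TDRD1 with TDRD5 and 0.583 for TDRD1 with PIWIL1. Within scan day 1 the values were 0.927 and 0.894. Without control 17 they were 0.737 and 0.706 and did not pass (adjusted p = 0.107 and 0.114). Over all 15 arrays they were 0.273 and 0.899 (permutation adjusted p = 0.454 and 0.0011). DDX4 and PIWIL4 had the lowest r of all pairs, -0.505 (permutation adjusted p = 0.207), which was -0.699 without control 17 (adjusted p = 0.114), -0.822 without controls 17 and 18, the animals farthest from the PIWIL4 median, and -0.326 within scan day 1. It did not pass over 14 or over 13 animals.

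**Figure D4:**
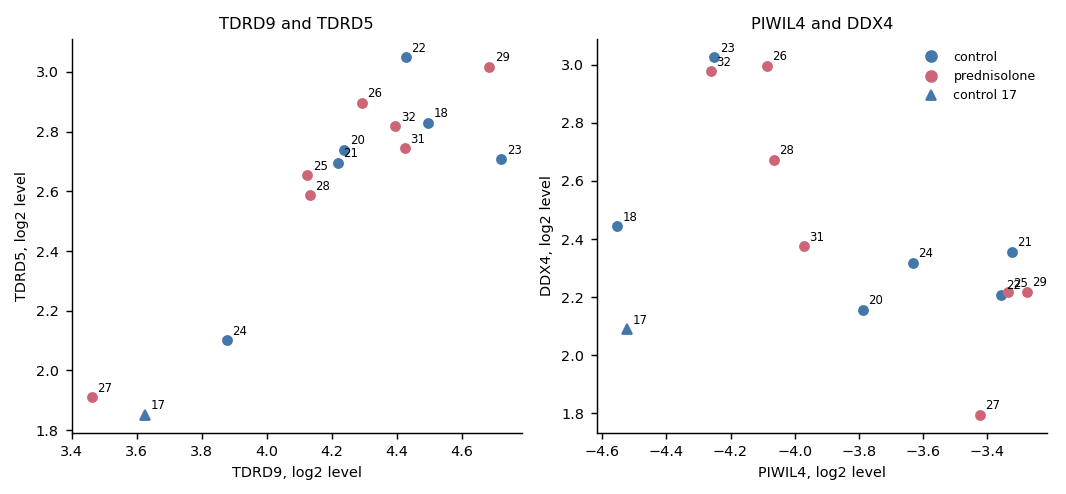
Log2 levels of TDRD5 against TDRD9 (brighter probe, left) and of DDX4 against PIWIL4 (right) in 14 animals without prednisolone 30. Animal numbers stand beside the points. On the left control 17, control 24 and prednisolone 27 lie apart from the other 11 (r = 0.898 with and 0.525 without them); on the right r is -0.505.

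Among the 13145 other named genes with a value on each of the 14 arrays, those whose pattern was most like the mean of the 10 genes were FAM98A (r = 0.963), H3-3D (0.9498), TLE7 (0.945), GDAP1L1 (0.940), RBM14 (0.939) and CIAO3 (0.937). Without control 17 their r lay between 0.806 and 0.861 over 13 arrays, and the best of them, FAM98A, ranked 12 there. These are descriptions of 14 arrays that share a platform and 1 outlying animal.

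No other gene of the pathway passed the test. Of 46 further piRNA pathway genes, 36 had a probe and 33 were tested; 0 passed in either direction (limma), 12 had higher and 21 lower values, and the median difference was -0.057. Without prednisolone 30, 21 were higher and 12 lower and the median was 0.036. Without prednisolone 30 and control 17, 14 were higher and 19 lower and the median was -0.016. An unadjusted p under 0.05 was seen for 0 of 33 on all arrays (2.63% of all genes), and for 1 without prednisolone 30 (4.29% of all genes).

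PIWIL3, the remaining PIWI gene, was named outside the rule for its family. It was detected above background in all 7 controls and in 6 treated animals, and its difference was 0.022 ± 0.52 (SE; limma adjusted p = 0.992). It was -0.42 without prednisolone 30, whose reading of -3.12 was not well above background. The probes of MYBL1, the transcription factor that switches on pachytene piRNA precursors, and of PLD6, the mitochondrial nuclease that cuts them, were not well above background on any array. That of MORC1 was so on 1 treated array. None of these was tested.

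Of the 8 genes nearest to the threshold by the naming rule, 4 had higher values. PNLDC1, the nuclease that trims piRNA ends, differed by 0.46 ± 0.28 (SE) and by 0.26 without prednisolone 30. EHMT2, a histone methyltransferase, differed by 0.47 ± 0.40 (SE) and by 0.11. FKBP6, a co-chaperone of PIWI loading, differed by 0.32 ± 0.29 (SE) and by 0.047. SPOCD1, which links PIWIL4 to DNA methylation, differed by 0.29 ± 0.21 (SE) with 7 of the 8 treated animals above the mean of controls. Its difference was 0.39 without prednisolone 30 (unadjusted p = 0.0456, limma adjusted p = 0.964), where it was the 1 gene of the 33 under an unadjusted p of 0.05. It was 0.16 without control 17, and 0.061 with slide as a block (limma adjusted p = 0.974). With slide as a block FKBP6 was at 0.64.

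The other 4 had lower values. DNMT3A, a DNA methyltransferase, differed by -0.31 ± 0.25 (SE) and by -0.088 without prednisolone 30. WDR77, the partner of the arginine methylase PRMT5, differed by -0.28 ± 0.23 (SE) and by -0.068. TSNAX, a nuclease subunit, differed by -0.24 ± 0.21 (SE) and by -0.10, and TDRKH, a Tudor protein that tethers PIWI proteins to mitochondria, by -0.19 ± 0.17 (SE) and by -0.090. The limma adjusted p of all 8 genes was 0.885. On the array of prednisolone 30, PNLDC1, EHMT2, FKBP6, DNMT3A and WDR77 were not well above background and SPOCD1, TSNAX and TDRKH were. Leaving that array out moved 7 of the 8 differences by more than 1.5 times, all but that of SPOCD1. With slide as a block DNMT3A was at -0.51 and TSNAX at -0.020.

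**Figure D5:**
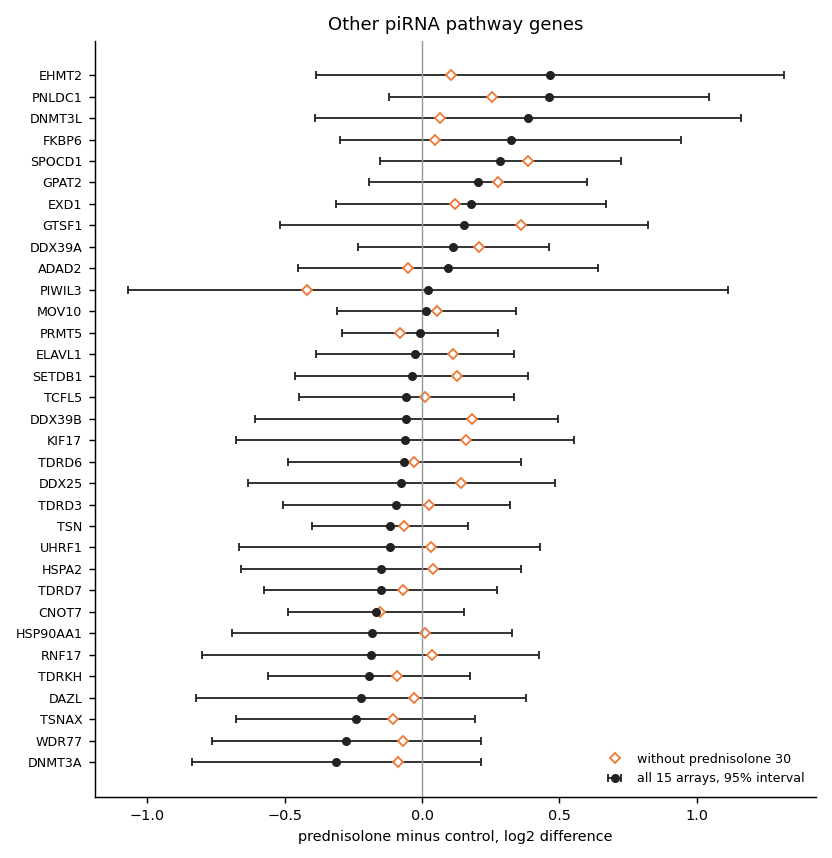
Log2 differences of prednisolone minus control for the 33 tested further piRNA pathway genes, with 95% intervals from limma over all 15 arrays (black) and the value without prednisolone 30 (open diamonds). The black points run from -0.31 (DNMT3A) to 0.47 (EHMT2), and all intervals include 0; without prednisolone 30 these genes lie at -0.088 and 0.11.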

How the data were processed

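Total RNA was labelled with Cyanine 3 and hybridised to single-colour Agilent bovine arrays, 1 animal each. Scanner files, as deposited, hold the intensity of every spot from Feature Extraction 9.5.1.1, per the file headers, as a background-subtracted, multiplicatively detrended signal with no normalization between arrays. A value table by the authors holds intensity brought to a common level; its method is not given here, and the submitters' processing notes name R 2.11.1.

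Control spots and outlier spots were left out, log2 signals set relative to each array's 75th percentile, and spots of a probe averaged. Probes well above background on at least 7 arrays of a group were tested by moderated two-sided statistics (limma 3.58.1 under R 4.3.3), adjusted over all tested probes. For genes with several probes the one with the highest mean level was used. Probes were named through accessions, gene numbers, symbols and descriptions with a RefSeq table of ARS-UCD2.0; the array's own build is not stated, and coordinates were not used. Named were the 10 genes, in each direction the 4 further pathway genes of lowest unadjusted p, and the 6 genes most correlated with the mean of the 10. Members and lists were chosen with earlier results of these data known. Correlations were tested by permutation, exact for 8 arrays and otherwise with 100000 resamples. The fit was tested on simulated data. Alternatives covered scaling, background correction, the deposited table, the filter, slide, scan day, array weights, outlier spots and single animals. Both groups were present on slides 1 and 4 and on scan day 1. The p-values measure the spread between these animals.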

Additional observations from a re-analysis of the deposited data

Results flagged for a closer look

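A single animal was set apart from its group by Dixon's test in 13 of 40 sets of values, of which about 2 would arise by chance. Prednisolone 30 was that animal in 9 of the 13 and control 17 in 3.

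In control 17, PIWIL1 was at -1.65 with the next control at -0.59, MOV10L1 at -2.47 with the next at -1.60, and the mean of the 10 genes at -0.73 with the next at -0.13. All 3 rest on readings well above background. DDX4 was at 3.03 in control 23, with the next control at 2.44.

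In prednisolone 30, whose values here are those of the scanner file, PIWIL2 was at -0.21, well above background, with the next treated animal at -2.31. In the deposited table all 11 probes of that animal lay inside the range of the 13 others. PIWIL1 was at -2.09, TDRD1 at -2.40 and ASZ1 at -1.83, with the next treated animals at -0.73, -1.16 and -0.85, and these 3 were not well above background. Among further pathway genes on that array, SPOCD1 was at -0.56, well above background, and PNLDC1 at -2.79, FKBP6 at -1.92, DNMT3A at -1.74 and WDR77 at -2.20 were not.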

How the results depend on the processing

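In 29 alternatives to the fit, 0 genes of all tested, 0 of the 10 and 0 of the further pathway genes passed, with 79 to 884, 0 to 1 and 0 to 3 at an unadjusted p under 0.05; with array weights 1 probe that stands for no gene passed. None of the differences was past the threshold, so a turned sign lies within the error. The cause of the changes was not tested.

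With scan day in the model, an estimate that rests on the arrays of scan day 1 alone, PIWIL1 was 0.021, TDRD1 0.19 and ASZ1 0.038. With slide as a block TDRD1 was 0.14 and ASZ1 0.16. Within slide 1, PIWIL1 was 0.51, DDX4 0.34, TDRD9 0.15, TDRD1 0.72, ASZ1 0.45, EHMT2 -0.0079, WDR77 0.079, TSNAX 0.36 and TDRKH 0.078. Within scan day 1 without prednisolone 30, an alternative chosen after seeing the data like those on pairs, on the genes lowest in control 17 and on the deposited table without prednisolone 30, PIWIL1 was 0.29, DDX4 0.037, TDRD9 0.10, TDRD1 0.51, ASZ1 0.26, EHMT2 -0.026, WDR77 0.10 and TSNAX 0.054. Within slide 4 (1 control, 2 treated, no test) DDX4 was -1.30, and without prednisolone 30 PIWIL2 was -0.15 there.

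With array weights, PIWIL4 was -0.12, DDX4 0.24, TDRD9 0.0042, ASZ1 0.091, EHMT2 -0.12, FKBP6 -0.041 and PIWIL3 -0.77. With quantile scaling, PIWIL4 was -0.16, the second TDRD9 probe -0.18 and PIWIL3 -0.21, and with median scaling PIWIL3 was -0.033. With normexp, TDRD1 was 0.015, ASZ1 0.0014 and MAEL -0.034. In the deposited table DDX4 was 0.093, TDRD1 0.028, ASZ1 0.11 and PIWIL3 -0.44, and there without prednisolone 30 DDX4 was 0.096, ASZ1 0.065 and PIWIL3 -0.39. Without prednisolone 30 and control 17 together, DDX4 was 0.046, TDRD5 -0.026, ASZ1 0.042 and PIWIL3 -0.58. Leaving out 1 animal at a time gave ranges of -0.16 to 0.093 for DDX4, -0.38 to 0.00011 for TDRD1, -0.19 to 0.077 for ASZ1 and -0.42 to 0.21 for PIWIL3.

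The count of pairs that vary together, 1 over 14 arrays and 1 (another pair) within scan day 1, was 0 without control 17, on all 15 arrays, in the deposited table and with quantile scaling. No paired analysis was possible because the groups share no animal numbers.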

Other observations

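Genes of the microRNA and Argonaute pathway, the somatic relatives of the piRNA machinery, were also read. Of 13 such genes 12 had a probe and 11 were tested; 0 passed (limma; 1 at an unadjusted p under 0.05, against 2.63% of all genes), 4 had higher and 7 lower values, and the median difference was -0.040. Without prednisolone 30, 7 had higher and 4 lower values and the median was 0.041. In control 17 their mean of centred values was 0.26, against -0.12 to 0.12 in the 13 other animals, where the mean of the 10 PIWI and piRNA pathway genes was -0.73.

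PIWIL4 and the second probe of TDRD9 ranked the 8 arrays of scan day 1 without prednisolone 30 in the same order (rho = 1, r = 0.926, exact permutation test, adjusted p = 0.00273 and 0.00136 over the 55 pairs). Over 14 arrays their r was 0.723 (permutation adjusted p = 0.0705), and it was 0.677 without control 17.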
